A study of Danio rerio with 9 samples.

Results

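The Popeye domain family of zebrafish consists of *bves*, *popdc2* and *popdc3*, and the transcript levels of these 3 genes, of 32520 listed, were followed in 9 skeletal muscle libraries. RNA sequencing covered *bves* KO-EX, *bves* KO and WT fish, 3 libraries a group, and each library was made from pooled muscle of 2 fish. All fish were males, 12 months old when they were chosen, the WT fish were of the AB strain, and the muscle came from the trunk between the dorsal fin and the caudal fin. The *bves* KO-EX fish are labelled as knockouts, like the *bves* KO fish, and had swum for 8 weeks in sessions of 1.5 h, with 1 rest day after every 3 training days. The *bves* KO fish and the WT fish did not train, and there was no trained WT group, so an effect of training on WT muscle cannot be told apart from one that needs the knockout.

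Popeye proteins are transmembrane proteins of striated muscle with a short extracellular end, membrane-spanning helices and a cytoplasmic Popeye domain that binds cAMP. They lie in the sarcolemma and T-tubules, form complexes with one another and with ion channels, caveolin and proteins of membrane trafficking, and are regarded as cAMP effectors beside protein kinase A, Epac and cyclic nucleotide-gated channels. In people, variants of the human orthologues of *bves* and *popdc3* cause limb-girdle muscular dystrophy, and Popdc1 and Popdc2 mutant mice have stress-induced sinus node disease. The deposited annotation gives the 3 zebrafish genes 7 terms in common, among them cAMP binding, sarcolemma, regulation of membrane potential and skeletal muscle tissue development. *bves* alone of the 3 carries terms for tight junctions, caveolae and epithelial adhesion, and *popdc2* alone carries cardiac conduction.

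The members were looked up by gene name, which found *bves* (ENSDARG00000058548, listed length 1771 bases) and *popdc3* (ENSDARG00000058551, 2873 bases). No row is named *popdc2*. Its identifier, ENSDARG00000069922 (2645 bases), stands under the name *pla1a* with a description as Popeye domain containing 2 and with a Popeye domain, and it was taken as *popdc2* by that identifier. These 3 rows are the ones listed with a Popeye domain. In the RefSeq gene order of the assembly GRCz12tu, *popdc3* is the direct neighbour of *bves*, and *popdc2* is the neighbour of the true *pla1a*, a phospholipase gene. The estimated counts of *popdc2* were not whole numbers in 9 of 9 libraries (tolerance 0.005), and summed with those of *pla1a* they were whole in every library. Reads were therefore divided between both rows, with 7.94% to 23.2% of the sum given to *pla1a*. How many reads matched both genes is not known, so the level of *popdc2* is uncertain to an extent that was not measured.

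The knockout was made with a pair of Cas9 guides against exon 2 of *bves*, and frameshift lines were kept. The guides are shown because they mark the exon that was edited. They are given 5′ to 3′ as DNA, with the 3 bases next to the PAM in capitals, since Cas9 cuts just before these bases.
Target 1: acccagcccgagactcaGGT
Target 2: tctattggtgctctacgGGA
The lines were genotyped with a pair of primers, given in lower case with nothing marked.
Forward genotyping primer: acgccacactatgccaggat
Reverse genotyping primer: attctgacttcaaatttatatataccc
The sample labels do not say which frameshift line was sequenced. A count taken over the whole gene does not read the frame of the transcript, so the level of *bves* is only an indirect check of the labels.

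The libraries held between 17422188 and 18860779 estimated counts, and TMM scaling factors lay between 0.763 and 1.17. The 3 members had 50.6 to 912 estimated counts in a library. All 13 markers of fast muscle fibres were listed, with summed levels of 117930 to 156700 TPM in *bves* KO-EX, 146470 to 163650 TPM in *bves* KO and 114930 to 137810 TPM in WT. Of 8 cardiac markers listed, *myl7*, *nppa*, *nppb* and *tbx5a* were at 0 in every library. In all, 7 of the 8 stayed under 1 TPM in every library, and *tnni1b* was at 2.52 to 13.5 TPM. Summed markers of fibroblasts and tendon (4 of 4 listed, none at 0 in all 9 libraries) were higher in both knockout groups, with 109 to 188 TPM among the *bves* KO-EX libraries and 93.7 to 144 TPM among those of *bves* KO, against 38.95 to 45.9 TPM in WT. Markers of blood (4 of 4 listed) summed to 1094 to 1641 TPM in *bves* KO-EX, against 674 to 1023 TPM in WT. The blood marker *hbba1* stands on 2 rows, and only the first entered this sum. Those of smooth muscle (3 of 3 listed) summed to 87.6 to 108.05 TPM in *bves* KO-EX, against 52.1 to 80.25 TPM in WT. Neural markers (6 of 6 listed, 3 under 1 TPM in every library) summed to 140 to 190 TPM in *bves* KO-EX, against 112 to 131 TPM in WT. The neural sum was nearly all *mbpa*, at 83.5 to 138 TPM, and *mpz*, at 26.9 to 66.7 TPM. Sums of slow fibre, skin, endothelial and immune markers overlapped between *bves* KO-EX and WT. Satellite cell markers (3 of 3 listed) summed to 2.00 to 4.64 TPM in *bves* KO-EX, against 4.77 to 5.73 TPM in WT. In *bves* KO their sum was 2.42 to 4.97 TPM and overlapped with WT. Of the 3, 2 stayed under 1 TPM in every library, so the sum was mostly *myf5*, at 1.64 to 5.36 TPM. Mitochondrially encoded genes took 23.4% of the counts in *bves* KO-EX 1 and 11.8% to 16.5% in the other libraries. In bulk muscle, fewer cells of a type and less RNA per cell cannot be told apart. The part of these markers and of the mitochondrial share in the results that follow was not tested.

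*bves* was the most abundant member of the family in WT muscle. Levels between genes are compared here in TPM, a share of all transcripts that takes gene length into account. *bves* averaged 25.7 ± 2.27 TPM in WT (SD, n = 3), *popdc2* averaged 4.78 ± 0.928 TPM and *popdc3* averaged 3.94 ± 0.919 TPM. Among the 10225 genes with a mean of at least 1 TPM in WT, 86.7% lay below *bves*, 54.3% below *popdc2* and 48.7% below *popdc3*, so that *bves* is a well expressed gene in this tissue and its paralogs are of middle rank. The lowest *bves* value in WT, 23.1 TPM, was above the highest value of either paralog there, 5.63 TPM for *popdc2*. *popdc2* and *popdc3* did not differ beyond their spread in WT, with *popdc2* the higher in WT 1 and WT 2 and *popdc3* the higher in WT 3.

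Library by library, *bves* was at 26.3, 8.36 and 28.9 TPM in *bves* KO-EX 1, 2 and 3, at 5.01, 9.83 and 4.33 TPM in *bves* KO, and at 26.9, 23.1 and 27.0 TPM in WT fish. The 9 values fell into 2 separate sets: the 3 *bves* KO libraries and *bves* KO-EX 2 at or below 9.83 TPM, and the 3 WT libraries with the libraries labelled *bves* KO-EX 1 and 3 at or above 23.1 TPM. Relative to the WT mean, *bves* stood at 103%, 32.6% and 113% in *bves* KO-EX and at 19.5%, 38.3% and 16.9% in *bves* KO. The transcript level of the targeted gene in *bves* KO-EX 1 and 3 thus lay within or above the WT range, unlike the other 4 libraries with a knockout label. The level does not read the frame of the transcript, so it does not give the genotype of these 2 libraries. Whether they came from knockout fish was not tested. For the 3 members, the comparisons that use *bves* KO-EX are given below also without these libraries.

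*popdc3*, which encodes the family member whose gene lies next to *bves*, was at 2.47, 1.32 and 3.37 TPM in *bves* KO-EX, at 0.98, 2.37 and 1.63 TPM in *bves* KO, and at 3.55, 3.28 and 4.99 TPM in WT. No *bves* KO library reached the lowest WT value. *bves* KO-EX 1 and 2 were below the WT range and *bves* KO-EX 3 was inside it. As a share of the WT mean, *popdc3* stood at 62.7%, 33.5% and 85.5% in *bves* KO-EX and at 24.9%, 60.2% and 41.4% in *bves* KO. No library with a knockout label reached the WT mean.

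*popdc2*, known from zebrafish and mouse for its part in cardiac conduction, was at 2.60, 5.07 and 6.06 TPM in *bves* KO-EX, at 2.94, 1.89 and 6.24 TPM in *bves* KO, and at 5.63, 3.79 and 4.92 TPM in WT. The groups overlapped in all 3 comparisons. In TPM, *bves* KO 1 and 2 were below the WT range and *bves* KO 3 was above it. Of the *bves* KO-EX libraries, 1 was below, 1 inside and 1 above that range in TPM. In CPM *bves* KO-EX 2 was below the WT range, at 11.9 against a lowest WT value of 12.6. As a share of the WT mean, *popdc2* stood at 54.4%, 106% and 127% in *bves* KO-EX and at 61.5%, 39.5% and 131% in *bves* KO. The highest *popdc2* level in TPM was thus in the library with the lowest *bves*, *bves* KO 3, although in CPM *bves* KO-EX 3 was slightly higher, at 16.5 against 16.3 in *bves* KO 3. On both scales the lowest *popdc2* value was in *bves* KO 2, another library with little *bves*.

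**Figure D1:**
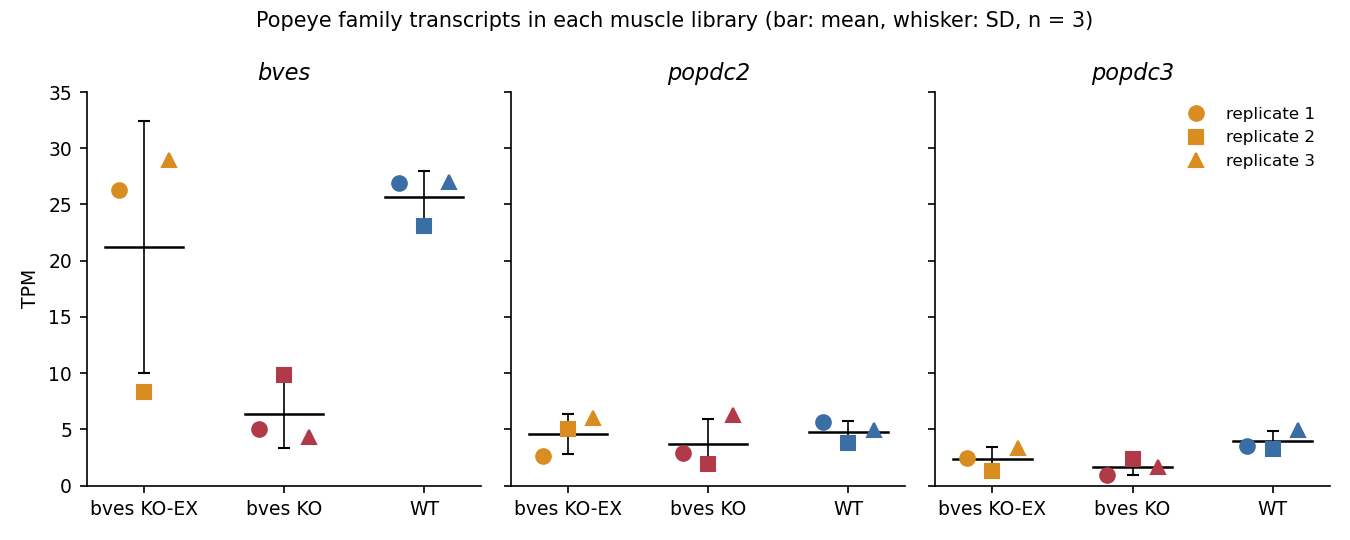
Level of *bves*, *popdc2* and *popdc3* in TPM (vertical axis) in each *bves* KO-EX, *bves* KO and WT library; symbols are the replicates, the bar is the mean and the whisker the SD (n = 3). *bves* of *bves* KO-EX 2 lies with the *bves* KO libraries at 8.36 TPM, and *popdc3* of every *bves* KO library lies below the WT libraries.

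Each gene was compared between the groups on the counts with edgeR, over 14849 genes in all 9 libraries. A gene passed at a Benjamini-Hochberg adjusted p under 0.05. These tests take each gene alone and do not set a paralog against *bves*. In *bves* KO against WT, *bves* had a log2 fold change of -2.13 (SE 0.547, 95% interval -3.36 to -0.90) and an edgeR adjusted p of 0.104. *popdc3* had a log2 fold change of -1.34 (SE 0.425, interval -2.28 to -0.40), with an unadjusted p of 0.00956 and an edgeR adjusted p of 0.154. *popdc2* had a log2 fold change of -0.44 (SE 0.371, interval -1.26 to 0.38) and an edgeR adjusted p of 0.574. In edgeR 0 of the 3 members passed, 2 had an unadjusted p under 0.05, and over all genes 1.11% passed and 16.9% had such a p. *bves* passed in DESeq2, where 1 of the 3 and 4.17% of all genes did, with a log2 fold change of -2.13 and an adjusted p of 0.00173. It also passed in edgeR without *bves* KO-EX 2, with -2.12, an SE of 0.339 and an adjusted p of 0.0175. That library is in neither group compared here, but all 9 libraries share an estimate of the spread. It was set apart by its own *bves* level, so this fit describes that choice and tests nothing. Over all alternatives the adjusted p of *bves* ran from 0.00173 to 0.297 and that of *popdc3* from 0.0549, in DESeq2, to 0.364.

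CPM of *popdc3* was 2.73, 7.21 and 4.52 in *bves* KO and 8.92, 13.9 and 13.9 in WT, so the groups were apart on this scale too. The groups of *bves* were likewise apart, at 7.94, 17.5 and 6.70 CPM in *bves* KO and 39.5, 57.2 and 43.8 CPM in WT. Of all tested genes, 10.2% had all their *bves* KO values below all their WT values, and 2 of the 3 members did. For *bves* and *popdc3* the exact permutation test of TPM between *bves* KO and WT gave a two-sided p of 0.1, the smallest that 3 libraries against 3 allow, and for *popdc2* it gave 0.5. The differences of the means were -19.3 TPM for *bves*, -2.28 TPM for *popdc3* and -1.09 TPM for *popdc2*.

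A rise of the paralogs in *bves* KO was not seen in these means. The fold change of *popdc2* was 0.738, with a 95% interval of 0.418 to 1.30, and that of *popdc3* was 0.394, with its whole interval below 1. With all 9 libraries, an increase of *popdc2* by more than 1.30-fold lay outside the interval, whereas a fall to 0.418 of the WT level lay at its lower end. The interval was not computed with a library left out, and its ends would then move. The value of *popdc2* depended on each *bves* KO library: its log2 fold change was -0.28 without *bves* KO 1, -0.16 without *bves* KO 2 and -0.98 without *bves* KO 3, with edgeR adjusted p values of 0.822, 0.856 and 0.285. The 3 members were each estimated lower in *bves* KO under every scaling that was tried.

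The trained fish were set against WT next, and all 3 log2 fold changes in *bves* KO-EX against WT were below 0. Of the 3 members, 0 passed in edgeR, 0 in DESeq2 and 0 had an unadjusted p under 0.05, against 5.39%, 10.9% and 25.1% of all genes. *popdc3* had the largest of them, -0.85 (SE 0.417, interval -1.77 to 0.08), with an unadjusted p of 0.0683 and an edgeR adjusted p of 0.234. *bves* had a log2 fold change of -0.37 (interval -1.55 to 0.80, edgeR adjusted p of 0.695) and *popdc2* one of -0.18 (interval -0.99 to 0.64, edgeR adjusted p of 0.800). For *bves* this value averages a library at 8.36 TPM with libraries at 26.3 and 28.9 TPM. Without *bves* KO-EX 2 it was 0.055, and with *bves* KO-EX 2 alone, which is then assumed to vary like the other groups, it was -2.05. The libraries were divided by their *bves* level, so these values of *bves* describe that division and test nothing. *popdc3* had a log2 fold change of -1.93 with *bves* KO-EX 2 alone, and *popdc2* one of -0.21. Both values rest on a single library picked by its *bves* level, so they do not test whether the paralogs follow *bves*.

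The comparison of *bves* KO-EX with *bves* KO is meant to address training in knockout fish, as far as the labels hold, and in it *bves* had a log2 fold change of 1.75 (SE 0.542, interval 0.54 to 2.97) and an edgeR adjusted p of 0.154. *popdc3* had a log2 fold change of 0.50 (interval -0.44 to 1.43, edgeR adjusted p of 0.663) and *popdc2* one of 0.26 (interval -0.56 to 1.08, edgeR adjusted p of 0.820). In edgeR 0 of the 3 passed and 1 had an unadjusted p under 0.05, against 1.64% and 15.3% of all genes. *bves* passed in DESeq2, where 1 of the 3 and 4.54% of all genes did, at 1.73 with an adjusted p of 0.018, and in edgeR without *bves* KO-EX 2, at 2.18 with an adjusted p of 0.0339. With *bves* KO-EX 2 alone the log2 fold change of *bves* was 0.078, that of *popdc3* turned to -0.59 and that of *popdc2* was 0.23. The mean of *bves* was 21.2 ± 11.2 TPM in *bves* KO-EX against 6.39 ± 3.00 TPM in *bves* KO (SD, n = 3 each). *bves* KO-EX 1 and 3 were at 26.3 and 28.9 TPM, and *bves* KO-EX 2 was at 8.36 TPM. These libraries were set apart by their *bves* level, so the *bves* fits that leave any of them out describe that split and do not test it. The values of *popdc3* and *popdc2* with *bves* KO-EX 2 alone rest on that single library and do not test a relation to *bves*.

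**Figure D2:**
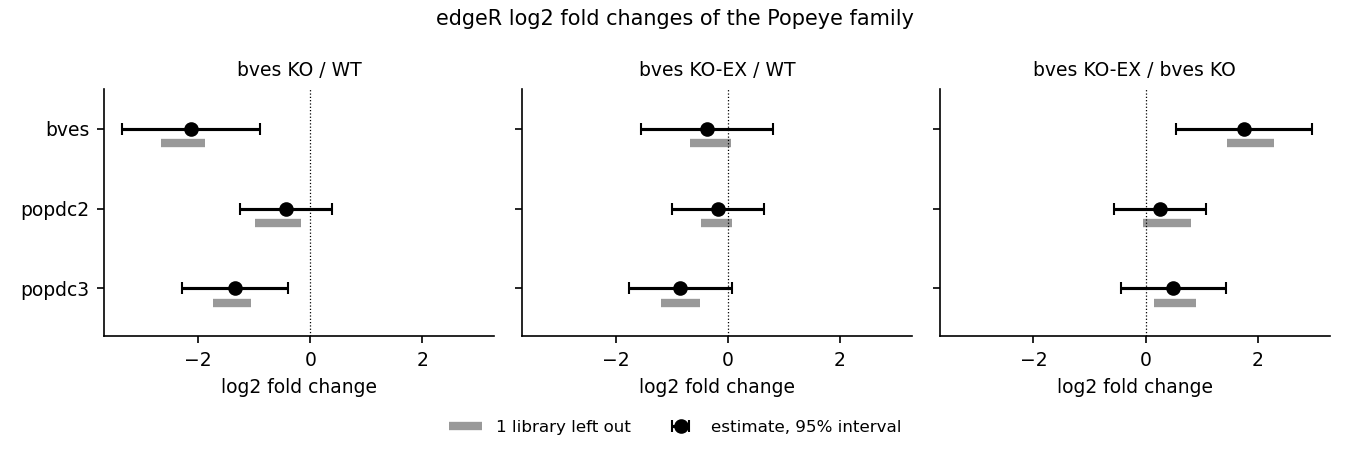
edgeR log2 fold change (horizontal axis) of each member in *bves* KO over WT, *bves* KO-EX over WT and *bves* KO-EX over *bves* KO, with its 95% interval in black and the range with 1 library left out in grey. The *bves* KO over WT estimates are -2.13 for *bves*, -0.44 for *popdc2* and -1.34 for *popdc3*, and the interval of *popdc2* spans 0 in every comparison.

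Across the 9 libraries, the 4 with the lowest *popdc3* were the same 4 that had the lowest *bves*, namely *bves* KO 1, 2 and 3 and *bves* KO-EX 2. This overlap was noted after the values were seen and is given without a test. The step between both sets was wide for *bves*, with 9.83 TPM below it and 23.1 TPM above it, and narrow for *popdc3*, with 2.37 TPM in *bves* KO 2 and 2.47 TPM in *bves* KO-EX 1. In TPM only 2 of the 4 lowest libraries of *popdc2* were among those 4. In CPM *bves* KO-EX 2 was also among the lowest of *popdc2*, at 11.9 against a lowest WT value of 12.6. For *popdc2* the overlap thus depends on the scale. Since *bves* falls into 2 clusters of 4 and 5 libraries, a pooled correlation of its paralogs with it is not given, and the relation cannot be tested within a cluster. Between *popdc2* and *popdc3*, Pearson's r was 0.21 (permutation p of 0.583) and Spearman's rho 0.2 (permutation p of 0.613) over 9 libraries, the 1 relation tested, and r was 0.386 (permutation p of 0.397) without the 2 libraries farthest from the median of *popdc2*, *bves* KO-EX 1 and *bves* KO 2.

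**Figure D3:**
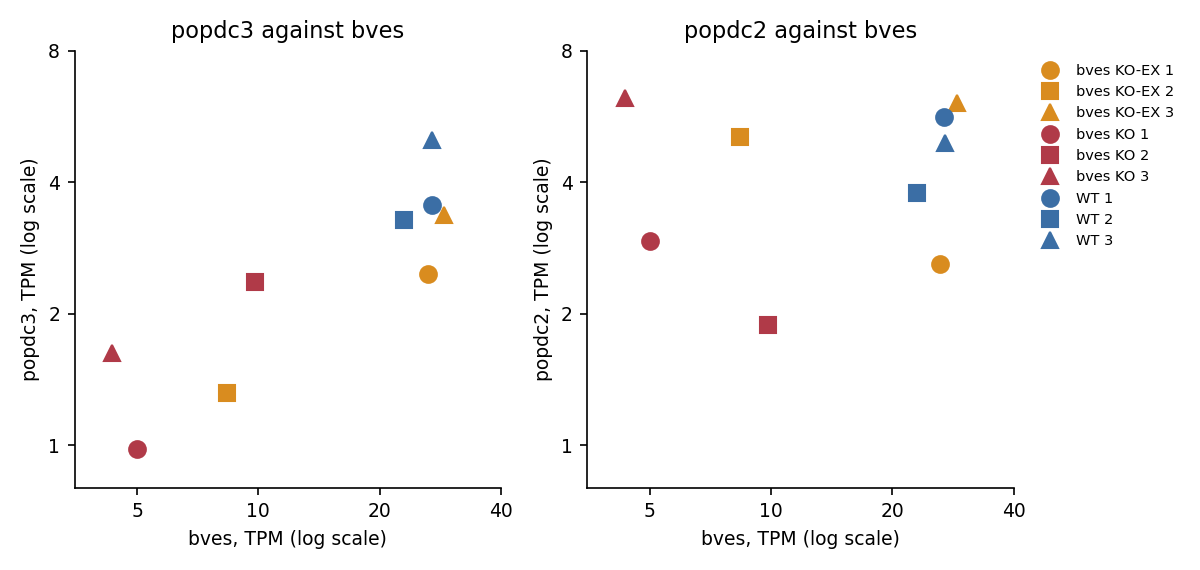
TPM of *popdc3* (left) and *popdc2* (right) on the vertical axes against TPM of *bves* on the horizontal axes, all on log scales, with 1 point for each of the 9 libraries. The 4 libraries with *bves* at or below 9.83 TPM hold the 4 lowest values of *popdc3*, whereas *popdc2* spans 1.89 to 6.24 TPM among them.

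The ratio of *bves* to *popdc3* in TPM was 10.7, 6.33 and 8.58 in *bves* KO-EX, 5.11, 4.15 and 2.66 in *bves* KO, and 7.58, 7.03 and 5.42 in WT. Each *bves* KO library had a lower ratio than each WT library, and the difference between the changes of both genes was not tested. *bves* was above *popdc3* in 9 of 9 libraries and above *popdc2* in 8 of 9. The exception was *bves* KO 3, where *popdc2* was at 6.24 TPM and *bves* at 4.33 TPM. *popdc2* was above *popdc3* in 7 of 9 libraries, the others being *bves* KO 2 and WT 3.

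Summed over the family, the level was 31.4, 14.8 and 38.4 TPM for the *bves* KO-EX libraries, 8.93, 14.1 and 12.2 TPM in *bves* KO, and 36.1, 30.1 and 36.9 TPM in WT. Its mean was 28.2 ± 12.1 TPM for *bves* KO-EX, 11.7 ± 2.61 TPM for *bves* KO and 34.4 ± 3.72 TPM for WT (SD, n = 3 each), and its highest value in *bves* KO was below its lowest value in WT. The sum follows *bves*, its largest term, and is given as a description. *bves* made up 83.8%, 56.7% and 75.4% of the family in *bves* KO-EX, 56.1%, 69.8% and 35.5% in *bves* KO, and 74.6%, 76.5% and 73.2% in WT. *popdc2* made up 8.29%, 34.4% and 15.8% in *bves* KO-EX, 32.9%, 13.4% and 51.1% in *bves* KO, and 15.6%, 12.6% and 13.3% in WT. The makeup of the family was thus nearly the same in the 3 WT libraries and differed from library to library with a knockout label. *popdc3* had a share of 7.87% to 8.95% in *bves* KO-EX and of 11.0% to 16.8% in *bves* KO, against 9.83% to 13.5% in WT.

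**Figure D4:**
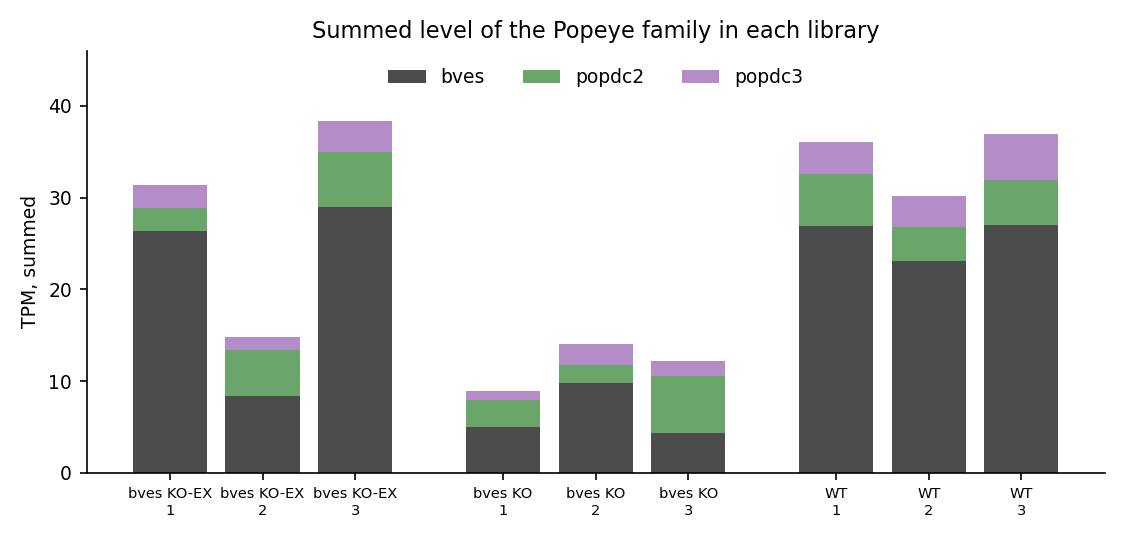
Summed TPM of *bves*, *popdc2* and *popdc3* (vertical axis, stacked) in each *bves* KO-EX, *bves* KO and WT library. The sum is between 8.93 and 14.1 TPM for *bves* KO libraries and between 30.1 and 36.9 TPM for WT libraries, and *bves* KO-EX 2 stands at 14.8 TPM beside 31.4 and 38.4 TPM in the other *bves* KO-EX libraries.

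Proteins known to bind Popeye proteins, or to act with them, were followed as a list of 20 genes, of which 19 are listed and 16 were tested. In *bves* KO against WT, 0 of 16 passed in edgeR and 0 in DESeq2, and 1 had an unadjusted p under 0.05. The shares of all genes were 1.11%, 4.17% and 16.9%. The median log2 fold change was -0.05, against -0.03 over all genes tested. For *bves* KO-EX against WT, 0 of 16 passed in edgeR and 0 in DESeq2, and 2 had an unadjusted p under 0.05. Here the shares of all genes were 5.39%, 10.9% and 25.1%. The median was -0.30, against 0.01 over all genes. For *bves* KO-EX against *bves* KO, the list median was -0.15, against 0.01 over all genes. An unadjusted p under 0.05 was found for 2 of 16, against 15.3% of all genes. Of the 16, 1 passed in edgeR and 1 in DESeq2, against 1.64% and 4.54% of all genes. It was the same gene in both tools, and it was lower, as were 0.916% of all genes in edgeR. That gene was *xirp1*, which encodes an actin-binding repeat protein of the myotendinous junction and the intercalated disc.

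*xirp1* was at 5.76, 6.32 and 3.11 TPM in *bves* KO-EX, at 20.1, 10.1 and 19.5 TPM in *bves* KO, and at 11.8, 3.51 and 10.5 TPM in WT. All 3 *bves* KO-EX libraries were below all 3 *bves* KO libraries, as they were for 10.8% of all genes in CPM, while WT overlapped with both groups in TPM. In CPM *bves* KO was above WT, as for 11.2% of all genes, and *bves* KO-EX overlapped with WT. Its log2 fold change in *bves* KO-EX against *bves* KO was -1.74, with an edgeR adjusted p of 0.0398. The call was lost, at adjusted p values of 0.0503 to 0.152, when any 1 of 7 libraries was left out (WT 1 and 3, *bves* KO 1 and 3, and each *bves* KO-EX library), and the log2 fold change then lay between -1.94 and -1.51. It was also lost with total-count scaling (adjusted p of 0.124) and in limma on TPM (0.258 and 0.284). With *bves* KO-EX 2 alone of its group, the log2 fold change against *bves* KO was -1.62. The log2 fold change was 0.93 in *bves* KO against WT (edgeR adjusted p of 0.217) and -0.82 in *bves* KO-EX against WT (edgeR adjusted p of 0.176). In TPM *xirp1* did not divide the *bves* KO-EX libraries as *bves* did, since *bves* KO-EX 2 had the highest of their 3 values on that scale.

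The other partners with the smallest unadjusted p did not pass. In *bves* KO against WT these were the potassium channel gene *kcnk2a*, with a log2 fold change of 1.14 at no more than 0.14 TPM in any library, the phosphodiesterase gene *pde4ca* at -0.48 and *ndrg4* at -0.40. Against WT, those of *bves* KO-EX were the dystrophin gene *dmd* at -0.54, *pde4ba* at -0.34 and *pde4ca* at -0.48. Between *bves* KO-EX and *bves* KO they were *ndrg4* at 0.68, *tjp1b* at -0.42 and *dmd* at -0.31. *cav3*, the gene of the muscle caveolin, was at 51.4, 77.2 and 87.7 TPM in *bves* KO-EX. It was at 77.8, 79.2 and 104.5 TPM in *bves* KO, and at 78.1, 78.2 and 101.4 TPM in WT. In each library *cav3* was thus more abundant than the whole Popeye family, and its *bves* KO and WT values covered almost the same range.

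The other cAMP effectors, subunits of protein kinase A and the Epac exchange factors, formed a list of 13 genes, of which 10 are listed and 8 were tested. For *bves* KO against WT, 0 of 8 passed in edgeR, 1 passed in DESeq2 and 1 had an unadjusted p under 0.05, against 1.11%, 4.17% and 16.9% of all genes, with a median log2 fold change of -0.07. Of the same 8 genes, 1 passed in *bves* KO-EX against WT, in both tools, against 5.39% of all genes in edgeR and 10.9% in DESeq2. The gene that passed was higher, as were 3.06% of all genes in edgeR. An unadjusted p under 0.05 in edgeR was found for 3 of the 8, against 25.1% of all genes. The median was -0.09. Between *bves* KO-EX and *bves* KO, 0 of 8 passed in edgeR and 0 in DESeq2, and 1 had an unadjusted p under 0.05. The shares of all genes there were 1.64%, 4.54% and 15.3%, and the median of the list was -0.09. The gene that passed in each case was *rapgef3*, which encodes Epac1, an exchange factor for Rap GTPases that cAMP activates.

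*rapgef3* was at 4.32, 4.05 and 3.92 TPM in *bves* KO-EX, at 3.78, 4.12 and 2.98 TPM in *bves* KO, and at 2.31, 0.89 and 2.56 TPM in WT. Every library with a knockout label was above every WT library, as was so in CPM for 15.0% of all genes in *bves* KO-EX and for 11.2% in *bves* KO, and the 3 *bves* KO-EX libraries lay close together, although their *bves* levels did not. Its log2 fold change was 1.15 in *bves* KO-EX against WT (edgeR adjusted p of 0.0312) and 1.00 in *bves* KO against WT (edgeR adjusted p of 0.0913, DESeq2 adjusted p of 0.0205). These comparisons share the WT libraries. With *bves* KO-EX 2 alone of its group, the log2 fold change against WT was 0.89. Without WT 1, WT 2, *bves* KO 1, *bves* KO-EX 1 or *bves* KO-EX 3 the edgeR call was lost, at adjusted p values of 0.0548 to 0.0947, and also with total-count scaling (0.0564), in the fit of the 6 libraries compared (0.0546) and in limma on TPM (0.143 and 0.151). Of the kinase subunits, *prkacab* had a log2 fold change of -0.69 in *bves* KO-EX against WT, *prkacbb* -0.48 and *prkacaa* -0.36, and none of them passed. In *bves* KO against WT the effectors next after *rapgef3* by p were *prkacbb* at -0.42, *prkar2aa* at 0.39 and *prkar1aa* at -0.27. Between *bves* KO-EX and *bves* KO the smallest p were those of *prkacab* at -0.49, *prkar2aa* at -0.45, *prkacaa* at -0.16 and *prkar1aa* at 0.17. None of these passed.

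The genes around *bves* were followed as well, since *popdc3* lies beside it. Besides *popdc3*, 19 neighbours were taken from the RefSeq order, of which 13 are listed and 10 were tested. In edgeR 0 of 10 passed in *bves* KO against WT, in *bves* KO-EX against WT or in *bves* KO-EX against *bves* KO. Of all genes, 1.11%, 5.39% and 1.64% passed in these comparisons. In DESeq2 1 of 10 passed in *bves* KO against WT, *pimr209*, against 4.17% of all genes. In each of the others 0 passed, against 10.9% and 4.54% of all genes. At an unadjusted p under 0.05 there were 3 in *bves* KO against WT, 0 in *bves* KO-EX against WT and 1 in *bves* KO-EX against *bves* KO, where all genes had 16.9%, 25.1% and 15.3%. The median log2 fold change of the neighbours in *bves* KO against WT was -0.39, against -0.03 over all genes tested, and their values ran from -0.86 to 2.02. The smallest unadjusted p in that comparison were those of *pimr209*, a Pim-related kinase gene, at 2.02, of *cnot10*, a subunit of the CCR4-NOT deadenylase, at -0.57, of *trim71* at -0.57 and of the autophagy gene *atg5* at -0.58. With *bves* KO-EX set against *bves* KO, *sri*, the gene of the calcium-binding protein sorcin, had a log2 fold change of 0.74 and was at 7.98, 8.40 and 9.20 TPM in *bves* KO-EX, at 6.21, 4.95 and 3.70 TPM in *bves* KO, and at 5.66, 5.31 and 8.01 TPM in WT. It did not pass, and the groups were apart, as they were for 12.2% of all genes in CPM. *sri* was high also in *bves* KO-EX 2, where *bves* and *popdc3* were low. Next by p in that comparison were *cnot10* at 0.40, *atg5* at 0.53 and *pimr209* at -0.86, and in *bves* KO-EX against WT the first were *trim71* at -0.53, *pimr209* at 1.16, *ano10a* at 0.31 and *med18* at -0.64.

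**Figure D5:**
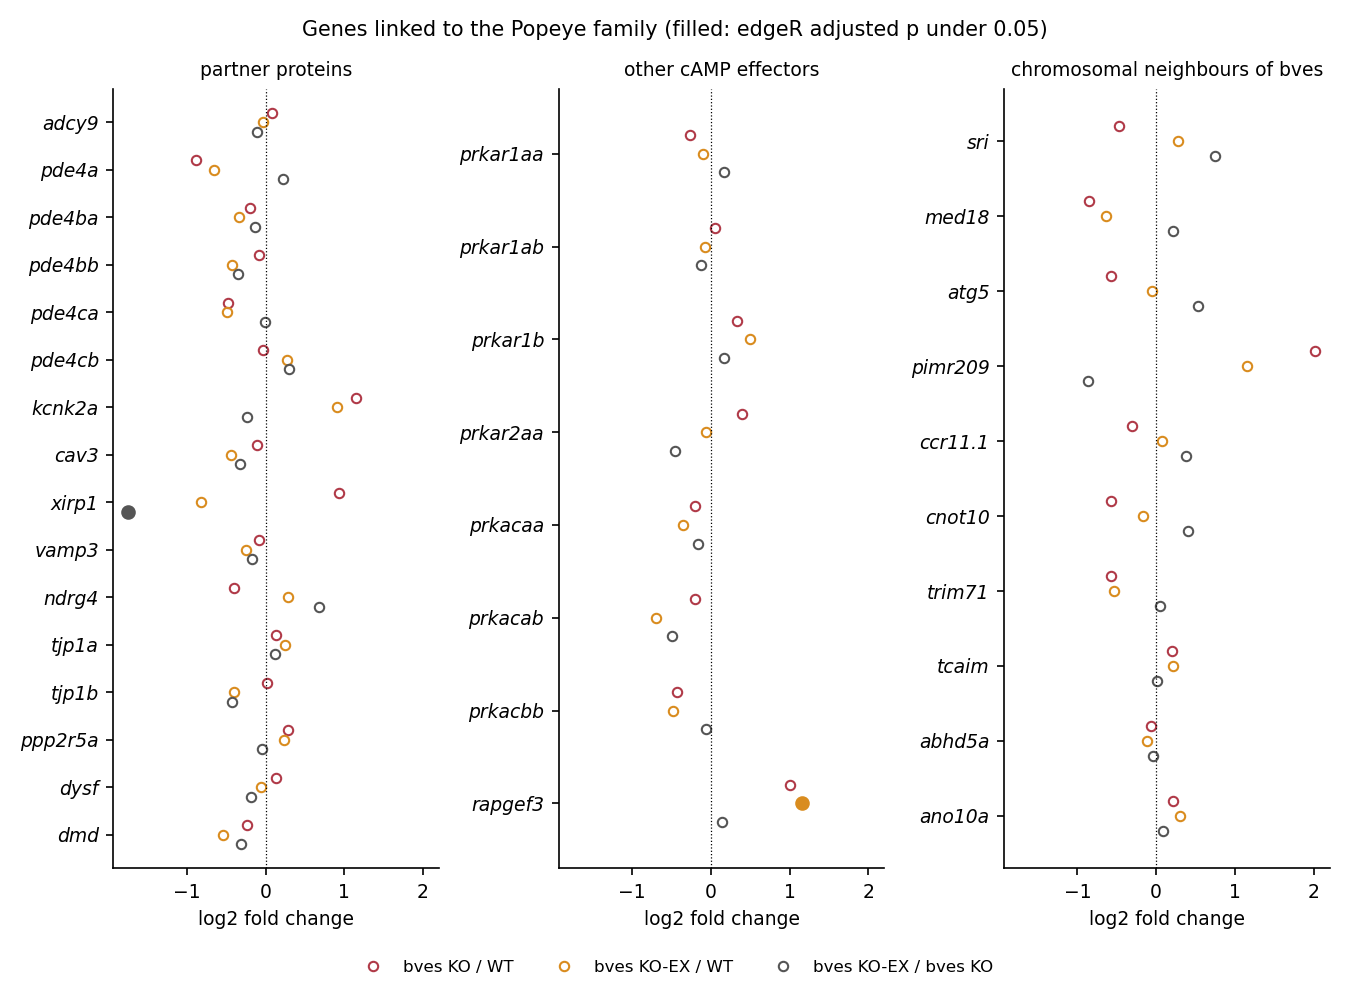
edgeR log2 fold changes (horizontal axis) of the tested partners of Popeye proteins, of the other cAMP effectors and of the neighbours of *bves*, with 1 circle for each of the 3 comparisons and a filled circle at an adjusted p under 0.05. The filled circles are *xirp1* at -1.74 in *bves* KO-EX over *bves* KO and *rapgef3* at 1.15 in *bves* KO-EX over WT.

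Among 6452 genes ranked by Pearson's r of log2 CPM over the 9 libraries, the 5 most like *bves* were *hnrnph3* (0.96), *kalrnb* (0.95), *gpr107* (0.95), *mavs* (0.95) and *abcd3a* (0.94). As *bves* lies in 2 sets of libraries, this measure pools both and describes likeness to that split only. *mavs*, which encodes an antiviral signalling adaptor of mitochondria, was at 28.2, 15.0 and 27.4 CPM in *bves* KO-EX, at 11.7, 19.3 and 11.2 CPM in *bves* KO, and at 21.4, 21.7 and 26.1 CPM in WT, with *bves* KO-EX 2 apart from the other *bves* KO-EX libraries. The 5 genes most like *popdc3* were *slc14a2* (0.98), *smim8* (0.94), *uqcrc2a* (0.94), *tomm40l* (0.94) and *auh* (0.93). The 5 most like *popdc2* reached lower values, with *swap70b* at 0.87, *boc* at 0.87, *sf3b2* at 0.87, *ccdc22* at 0.86 and *zc3h13* at 0.85. None of these 15 genes lies on the chromosome of the member it resembles. The values share 9 libraries and their scaling, and no test was made of them.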

How the data were processed

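The authors deposited estimated counts per Ensembl gene (RSEM, not normalized) and TPM values (scaled by the authors for gene length and library size), from poly(A), strand-specific, paired-end libraries of 9 muscle samples. The submitters' processing notes name fastp, HISAT2, StringTie and RSEM, and the genome build is not given in the sources used here. Deposited columns of the authors' own fold changes and p-values were not used, and gene names, descriptions and GO terms are those of the deposited tables. The *bves* KO columns stand in both tables, with 0 differing values.

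Counts were rounded, filtered with filterByExpr by group, scaled by TMM and fitted with edgeR 4.0.16 (glmQLFit, robust, and glmQLFTest, two-sided) over all 9 libraries, with Benjamini-Hochberg adjustment over 14849 genes. The SE was derived from the log2 fold change and the F statistic. Scripts were tested on simulated data. DESeq2 1.42.0, limma 3.58.1 on log2(TPM + pseudocount), other scalings and filters, a replicate block and each library left out were alternatives. Exact permutation tests of TPM were two-sided. Replicates are pools of different fish. Genes were ranked for likeness among those tested on log2 CPM. Of the partner, effector and neighbour lists, genes that passed were named, and where fewer than 4 passed, the 4 with the smallest unadjusted p were given by value. *cav3* was named outside this rule. *bves*, *popdc2*, *popdc3* and the lists were chosen with earlier results of these data known. RefSeq (GRCz12tu) served for names and gene order only, and no coordinates are given.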

Additional observations from a re-analysis of the deposited data

How the results depend on the processing

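In *bves* KO against WT, *bves* crossed the threshold with DESeq2 (log2 fold change -2.13, adjusted p of 0.00173) and in a fit of the 6 libraries compared (-2.12, adjusted p of 0.0359). Without *bves* KO-EX 1 and 3 its log2 fold change was -2.13. In the main fit all 9 libraries share an estimate of the spread, so the *bves* KO-EX libraries enter the SE of this comparison. That SE was 0.547 with all 9 libraries, 0.363 in the fit of 6 and 0.339 without *bves* KO-EX 2. The log2 fold changes were -2.13, -2.12 and -2.12. In *bves* KO-EX against *bves* KO, *bves* crossed the threshold with DESeq2 (1.73, adjusted p of 0.018). The cause of these differences between fits was not tested. *popdc3* in *bves* KO-EX against *bves* KO turned to -0.59 without *bves* KO-EX 1 and 3, a value that rests on a single *bves* KO-EX library.

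Leaving out each library, *bves* ranged from -2.67 to -1.88 in *bves* KO against WT, from -0.68 to 0.055 in *bves* KO-EX against WT and from 1.45 to 2.30 in *bves* KO-EX against *bves* KO, and passed without *bves* KO-EX 2 in the first (-2.12) and the last (2.18) and turned to 0.055 in the other. *popdc2* ranged from -0.98 to -0.16, from -0.48 to 0.076 (above 0 without *bves* KO-EX 1) and from -0.042 to 0.81 (below 0 without *bves* KO 2, at -0.0099, and without *bves* KO-EX 3, at -0.042). *popdc3* ranged from -1.74 to -1.05, from -1.19 to -0.50 and from 0.16 to 0.90, on the same side of 0 and of the threshold throughout. Summing *popdc2* with *pla1a*, an alternative chosen after seeing the data, gave -0.42, -0.21 and 0.21.

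The replicate numbers did not pair the libraries consistently. Same-numbered correlations of deviations ran from -0.01 to 0.16 between *bves* KO and WT, where *bves* KO 2 and 3 were most like their own number and *bves* KO 1 was not. They ran from -0.03 to -0.01 between *bves* KO-EX and WT, and from -0.28 to -0.04 between *bves* KO-EX and *bves* KO. With the replicate block, *bves* in *bves* KO against WT was -2.14, *popdc2* -0.57 and *popdc3* -1.35, no call of a member changed, *xirp1* and *rapgef3* lost theirs (adjusted p of 0.0547 and 0.052), and 127, 615 and 147 genes passed in the 3 comparisons, against 165, 801 and 243 without it.

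Over all genes, DESeq2 called 674, 1715 and 692, and total-count scaling 82, 411 and 109. Under total-count scaling the median of all genes moved to 0.11 in both *bves* KO-EX comparisons, 70.8% and 55.0% of the calls were higher, against 56.7% and 44.0%, and each member kept its direction. No correlation of *bves* with its paralogs is given on any scale, because *bves* falls into separate clusters of libraries, and those relations were not tested. The fit of only 6 libraries called 317 in *bves* KO-EX against WT. With 1 library left out the counts ran from 34 to 224, from 166 to 1135 and from 20 to 255, so that the main counts depend on single libraries. With 3 pools a group, the intervals of *bves*, *popdc2* and *popdc3* stay wide. *popdc3* had at most 275 reads in a library, yet in *bves* KO against WT the SE was largest for *bves*. It was 0.547 for *bves*, 0.371 for *popdc2* and 0.425 for *popdc3*.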

Other observations

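For *tjp1b*, the gene of a tight junction scaffold protein that binds Bves, the deposited scales differed. It was at 5.91, 2.67 and 16.6 TPM in *bves* KO-EX, at 14.7, 16.2 and 10.4 TPM in *bves* KO, and at 2.03, 0.97 and 2.15 TPM in WT, whereas its CPM was 11.2, 9.19 and 10.6 in *bves* KO-EX, 15.6, 10.9 and 15.0 in *bves* KO, and 13.5, 11.2 and 16.2 in WT. Its TPM divided by its CPM per listed kilobase ran from 0.658 to 11.95 over the libraries, against 0.713 to 1.29 for *bves*, 0.683 to 1.13 for *popdc2* and 0.680 to 1.17 for *popdc3*. *tjp1b* was singled out after its values were seen, and isoform counts were not analysed here.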
